A study of Mus musculus with 15 samples.

Results

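The 193 genes described here lie in a stretch of mouse chromosome 18, from Crem, the first gene of the chromosome measured, to Dym, the last before Smad7. They were the genes of that stretch, in the gene order of RefSeq for mouse genome build 38 (GRCm38), with a probe set above the 40th percentile of its array in at least 3 of the 15 arrays. They are 193 of the 9528 genes that passed this filter over the whole genome. Egr1, Ndufa2, Lox, Cd74, Pdgfrb and Smad7, 6 genes of the stretch, were left out by the same rule. The stretch was chosen on its high values in tumours 3 and 4, so those values are given as a description, with no test.

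RNA of frozen liver tissue was hybridised to Affymetrix mouse arrays, and all mice were 16 months old. The 3 controls were livers of heterozygous Mdr2-KO mice, which keep an intact copy of Mdr2. The 6 knockout livers were non-tumorous tissue of homozygous Mdr2-KO mice, numbered 1 to 6 by animal. The 6 tumours came from 4 of those animals, with tumour 3 from mouse 3, tumour 4 from mouse 4, tumours 5-1 and 5-2 from mouse 5, and tumours 6-1 and 6-2 from mouse 6. Livers 1 and 2 had no tumour on an array. Mdr2, also called Abcb4, carries phosphatidylcholine across the canalicular membrane of the hepatocyte into bile. Mice without it develop chronic inflammation around the bile ducts and, late in life, hepatocellular tumours. The knockout is carried by every cell of the animal.

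Mouse chromosomes have their centromere at one end, and Crem lies near that end of chromosome 18. Neighbouring genes of a chromosome mostly have their own promoters and serve unrelated functions. The stretch holds, among others, the plasma protein gene Ttr, the mitochondrial chaperone gene Hspa9, the adhesion gene Ctnna1, the tumour suppressor Apc and the signal transducer Smad4.

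Some facts of all 15 arrays touch every value below. Abcb4 had signals of 779 to 1006 in the controls, 177 to 306 in the knockout livers, 397 in tumour 3, 681 in tumour 4 and 122 to 238 in the other tumours; whether its probe set lies in the deleted part was not tested. The median signal of an array was lowest in tumour 4, at 35.8, against 40.8 to 51.2 in the other 14. Of the defining markers of other cell types, all 5 bile duct markers measured were below the 40th percentile of the array in both tumours 3 and 4. The summed bile duct signal was 30.1 in tumour 3 and 48.6 in tumour 4, against 83.5 to 218 in the knockout livers and 68.8 to 148 in the controls. In the other tumours it was 103 to 200. The sum of the 6 stellate cell and myofibroblast markers was 784 and 667, against 1376 to 3096 in the knockout livers. It was 938 to 1037 in the controls and 945 to 2297 in the other tumours. The 9 macrophage markers summed to 3182 in tumour 3 and to 1124 in tumour 4, against 2835 to 4732. The sum of the 7 endothelial markers was 788 and 347, against 806 to 1090 in the knockout livers and 647 to 952 in the controls. In tumours 5-1, 5-2, 6-1 and 6-2 it was 515, 890, 537 and 1080.5. Hepatocyte markers, 8 genes such as Alb, summed to 59282 in tumour 3 and 63280 in tumour 4, against 64983 to 83101 in the knockout livers and 50351 to 62455 in the other tumours. Their part in the values of the stretch was not tested. In bulk tissue fewer cells of a type and less RNA per cell cannot be told apart.

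Levels were compared as log2 ratios. Each ratio is log2 of the deposited signal plus 9.1, minus the average of that value over the 6 knockout livers, then centred on the sample's median over all 9528 genes; each knockout liver was set against the other 5. Tumours 3 and 4 stood above all other samples. In tumour 3 the median ratio of the 193 genes was 0.79, which is 1.73-fold, with quartiles of 0.33 and 1.17. In tumour 4 it was 0.51, or 1.43-fold, with quartiles of -0.08 and 0.85. The median was 0.08, -0.07 and -0.04 in control livers 1, 2 and 3. Knockout livers 1 to 6 had medians of 0.03, -0.01, 0.03, 0.01, -0.08 and -0.04. The other tumours lay at 0.08 in tumour 5-1, -0.004 in tumour 5-2, -0.05 in tumour 6-1 and -0.17 in tumour 6-2. The SD of the medians was 0.04 among the 6 knockout livers, 0.08 among the 3 controls and 0.37 among the 6 tumours. Against the liver of the same animal, which tumours 5-1 and 5-2 share, as do tumours 6-1 and 6-2, the medians were 0.82 in tumour 3 and 0.49 in tumour 4, and 0.14, 0.04, -0.05 and -0.13 in tumours 5-1, 5-2, 6-1 and 6-2.

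**Figure D1:**
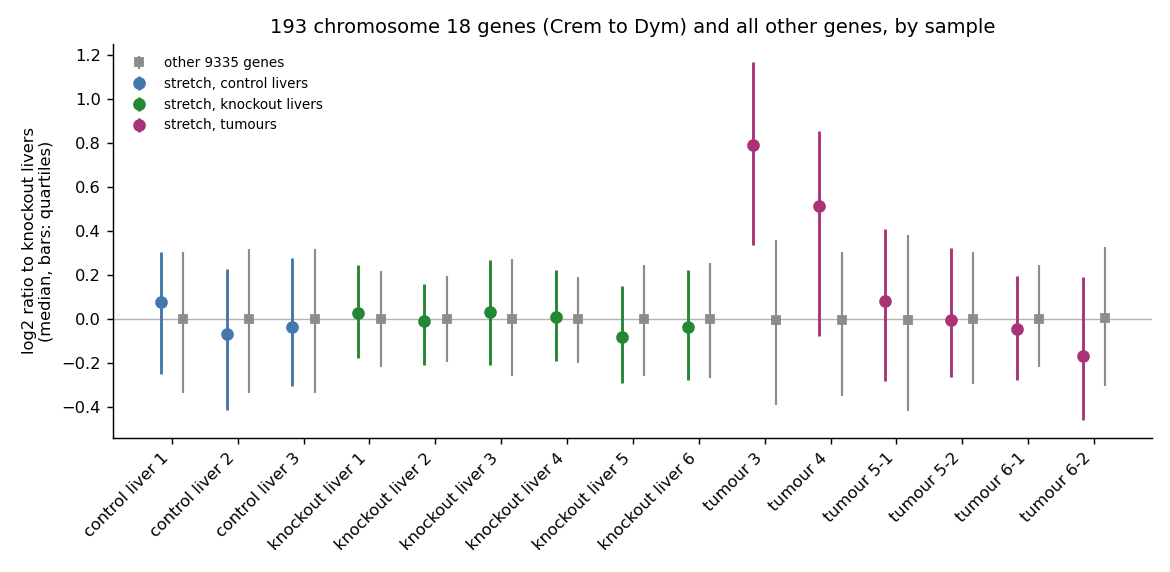
Median log2 ratio (vertical axis, relative to the knockout livers) of the 193 chromosome 18 genes in each of the 15 samples as circles coloured by group, and of the other 9335 genes as grey squares; bars span the quartiles over genes. Tumour 3 at 0.79 and tumour 4 at 0.51 stand above the other 13 samples, which lie between -0.17 and 0.08.

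Most genes of the stretch shared the higher level. In tumour 3, 159 of 193 genes (82.4%) had a ratio above 0, against 49.3% of the other genes. In tumour 4 this held for 137 genes (71.0%), against 49.6%. The share was 58.0% in tumour 5-1, 49.7% in tumour 5-2, 43.0% in tumour 6-1 and 38.9% in tumour 6-2. A ratio over 1 was seen for 62 genes in tumour 3 (32.1%, against 4.57% of other genes) and for 32 in tumour 4 (16.6%, against 4.13%). Both tumours were above 0 for 124 genes, tumour 3 alone for 35, tumour 4 alone for 13 and neither for 21. Each against its own liver, the ratios of tumours 3 and 4 had a Pearson r of 0.32 (Spearman 0.32) across the 193 genes and of 0.14 (0.11) across the 9335 other genes. These are correlations across genes, which share an array and are not independent replicates.

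Counted on the deposited signals without centring, tumour 3 exceeded every knockout liver for 133 of 193 genes (68.9%), against a background of 23.4% of all 9528 genes. For tumour 4 the count was 95 (49.2%), against 16.3%. Both at once did so for 88 genes (45.6%), against 6.02%, and both exceeded all 13 other samples for 67 (34.7%), against 2.36%. All 4 counts use the values that chose the stretch, and nothing is read from them. In tumour 5-1, which the choice did not use, 73 genes (37.8%) exceeded every knockout liver, against 31.1% of all genes. In tumour 5-2 it was 44 (22.8%, against 21%), in tumour 6-1 it was 26 (13.5%, against 14.7%) and in tumour 6-2 it was 30 (15.5%, against 20.5%). In these 4 tumours the shares lay near the background.

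**Figure D2:**
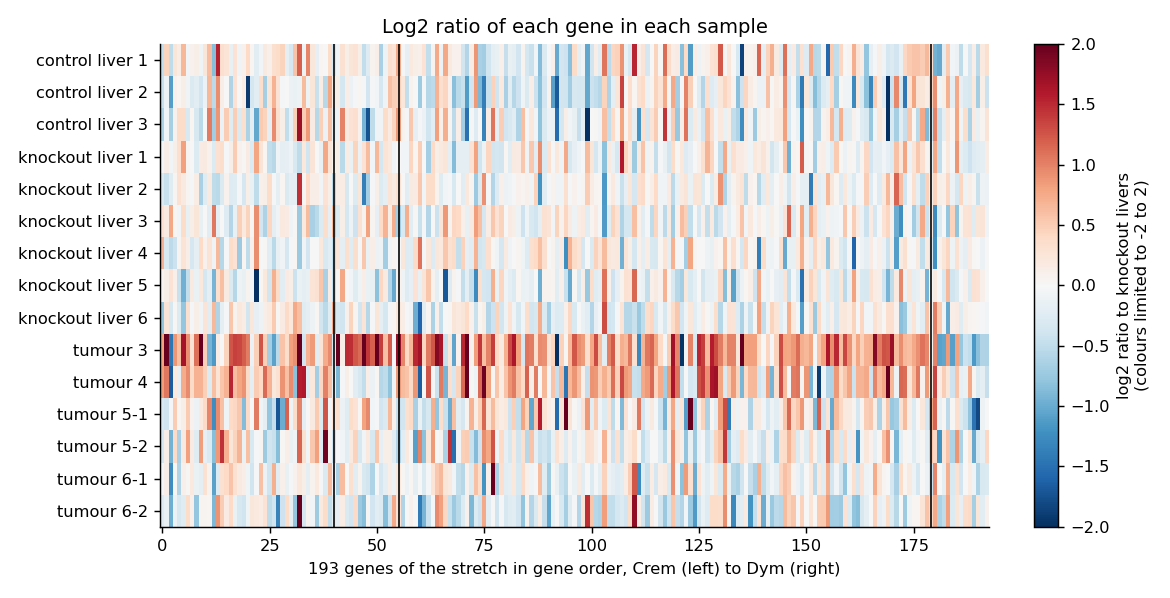
Log2 ratio to the knockout livers of each of the 193 genes (columns, in gene order from Crem at the left to Dym at the right) in each of the 15 samples (rows); red is above and blue below 0, with colours limited to -2 and 2, and black lines mark the segments described in the text. The rows of tumours 3 and 4 are mostly red, with 159 and 137 genes above 0, and the rows of the other 13 samples are mixed.

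Over all its measured genes, chromosome 18 had the highest median of any chromosome in tumours 3 and 4. The median ratio was 0.70 in tumour 3, where the 19 other chromosomes lay between -0.38 (chromosome 8) and 0.08 (chromosome 16). In tumour 4 it was 0.38, against -0.09 to 0.24 for the others, of which chromosome 16 was the highest. Chromosome 18 was also above all others in knockout liver 1, at 0.03, and below all others in control liver 2, knockout liver 5, tumour 6-1 and tumour 6-2, at -0.08, -0.07, -0.05 and -0.17.

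**Figure D3:**
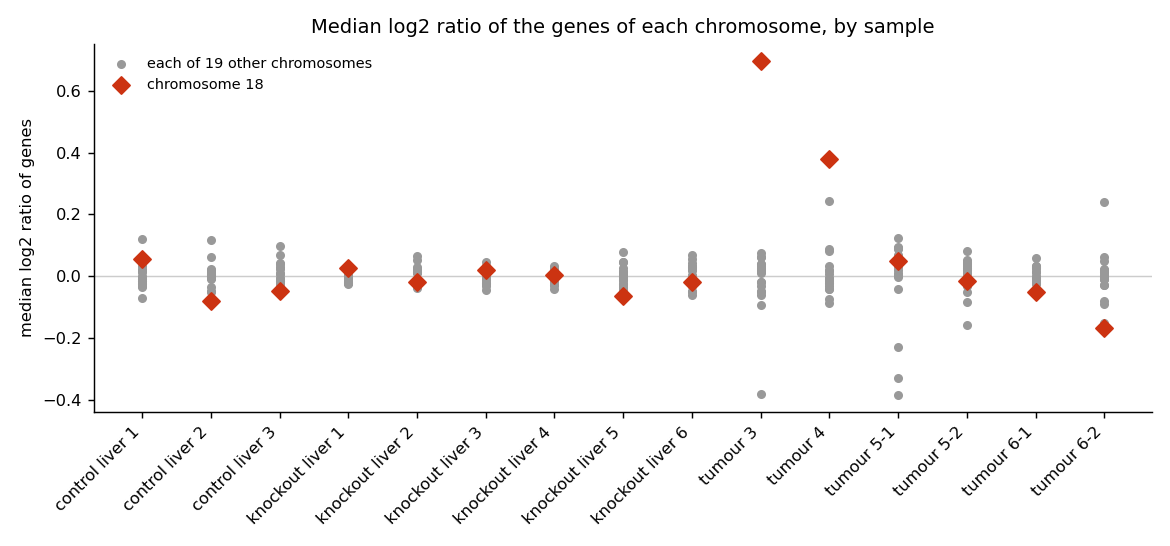
Median log2 ratio (vertical axis, relative to the knockout livers) of the genes of each chromosome in each of the 15 samples; red diamonds are chromosome 18 and grey points the 19 other chromosomes. Chromosome 18 lies at 0.70 in tumour 3 and 0.38 in tumour 4, above every other chromosome of those arrays.

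Along the gene order the high values were not even, and tumours 3 and 4 differed. The segments used next were set after the values were seen and are described without a test. From Crem to Rnf138, 40 genes, the median ratio was 0.65 in tumour 3 and 0.59 in tumour 4, with -0.10 to 0.13 in the other 13 samples. From Dtna to Syt4, 15 genes, tumour 3 was higher still, at 1.24, and tumour 4 was not, at -0.20, within the range of -0.27 to 0.12 of the others. From Slc25a46 to Mc2r, 124 genes, both were high again, at 0.80 and 0.62, against -0.22 to 0.13. From Tcf4 to Dym, the last 14 genes, tumour 3 was low, at -0.62, and tumour 4 lay at 0.11, against -0.16 to 0.16. In the 24 genes measured past Smad7, outside the stretch, the median was -0.43 in tumour 3 and -0.10 in tumour 4, against -0.30 to 0.04.

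**Figure D4:**
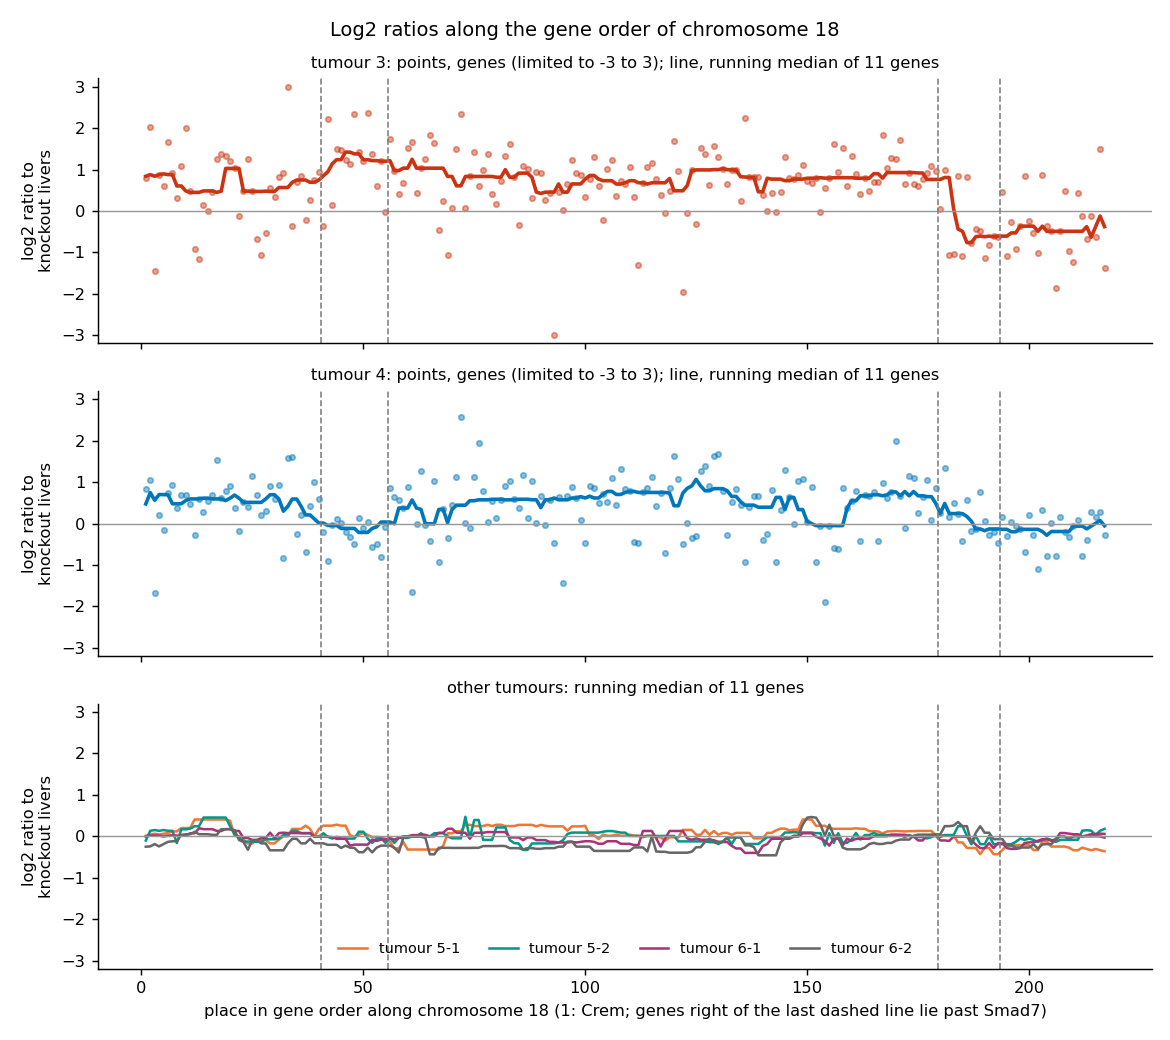
Log2 ratio to the knockout livers (vertical axis) by place in the gene order of chromosome 18 (horizontal axis, 1 is Crem), with points for single genes and a running median over 11 genes for tumours 3 and 4, and running medians for the other 4 tumours; dashed lines mark the segment ends, the last one the end of the 193 genes. Tumour 3 is highest between the first and second lines (median 1.24) and falls below 0 right of the third (median -0.62), where tumour 4 lies at -0.20 and 0.11.

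Counts of genes followed these medians. From Dtna to Syt4, 13 of 15 genes were above 0 in tumour 3 and 11 exceeded every knockout liver, whereas in tumour 4 only 4 were above 0, none exceeded every knockout liver and 7 were below every one. Of all 9528 genes, 28.1% were below every knockout liver in tumour 4 and 24.4% in tumour 3; over the whole stretch it was 34 genes (17.6%) and 23 (11.9%). Mocos, which encodes the enzyme that activates molybdenum cofactor for xanthine oxidase, had signals of 331, 287 and 287 in the controls and of 180, 299 and 447 (lowest, median and highest) in the knockout livers. It reached 1568 in tumour 3, against 283 in tumour 4 and 252 to 450 in the other tumours. Elp2, a subunit of the Elongator complex that modifies transfer RNA, gave 1583 in tumour 3, against 622, 674 and 736 in the knockout livers, 586 in tumour 4 and 444 to 717 in the other tumours; a second, dim probe set of Elp2 put tumour 4 at a ratio of 1.09. By the signals given tumour 3 alone was high for both genes, which were named after their values were seen. Over these 15 genes the ratios of tumours 3 and 4 to their own livers had a Pearson r of -0.52. In the segments Crem to Rnf138, Slc25a46 to Mc2r and Tcf4 to Dym, r was 0.46, 0.36 and 0.62. As the segments were set after the values were seen, these are description only.

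At the Smad7 end tumour 3 was low. From Tcf4 to Dym, 10 of 14 genes were below every knockout liver in tumour 3 and 3 were above, and past Smad7 15 of 24 were below and 3 above. Smad4, the common partner of the SMAD proteins that carry TGF-beta and BMP signals, had signals of 368, 329 and 392 in the controls and of 294, 363 and 500 in the knockout livers. It was 171 in tumour 3 and 258 in tumour 4, both below every knockout liver, and 248 to 418 in the other tumours. By 2 other Smad4 probe sets tumour 3 had ratios of -0.79 and -1.19, and tumour 4 of -0.06 and 0.12, inside the range of the knockout livers. Acaa2, a mitochondrial thiolase of fatty acid oxidation, was 1062 in tumour 3 and 2290 in tumour 4, against 2064, 2396 and 2803 in the knockout livers. By 2 other Acaa2 probe sets tumour 3 had ratios of -1.19 and -1.22, and tumour 4 of -0.07 and 0.24. Low ratios were not particular to tumour 3. These probe sets gave -1.28 and -1.34 in tumour 5-1 and -1.04 and -0.95 in tumour 5-2. Tumour 6-2 was at -0.78 and -0.61, and tumour 6-1 at -0.01 and 0.01. The last 3 genes inside the stretch had ratios below 0 in tumours 3 and 4, though Lipg in tumour 4 turned to 0.20 against the controls. Lipg, which encodes endothelial lipase, was at ratios of -0.83 and -0.27. The uncharacterised BC031181 was at -0.61 and -0.20, and Dym, a Golgi protein gene, at -0.62 and -0.46. A second, dim probe set put Lipg in tumour 3 at 0.23, and 1 put Dym in tumour 4 at 0.11. Just outside, Zbtb7c lay at 0.47 and 0.17, Smad2, which encodes a receptor-activated SMAD, at -1.09 and -0.29, and Ier3ip1 at -0.27 and 0.05. At the other edge Crem, a cAMP-responsive transcription factor gene, was at 0.80 and 0.84, Cul2, described further on, at 2.04 and 1.05, and Bambi, a decoy receptor gene of TGF-beta signalling, at -1.44 and -1.67 from signals below the 40th percentile of both arrays. No gene before Crem was measured.

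The filter and the choice of probe set bear on these medians. Before the filter the array held 265 genes of the stretch, with medians of 0.65 and 0.34, and the 72 that the filter left out had medians of 0.09 and 0.01. Just inside the threshold, the 7 genes above the percentile in exactly 3 arrays had medians of 0.73 and 0.04. Just outside, the 12 genes above it in exactly 2 arrays had medians of 0.27 and 0.05. Above the percentile in all 15 arrays were 134 genes, with medians of 0.82 and 0.62. Only 5 of the 193 needed tumour 3 or 4 to pass, and the other 188 had medians of 0.79 and 0.50. By mean signal, the dimmest 64 genes had a median of 0.72 in tumour 3 and of 0.004 in tumour 4, the middle 64 of 0.81 and 0.52, and the brightest 65 of 0.90 and 0.67. The 155 further probe sets of 94 of these genes, which did not represent their gene, had medians of 0.74 and 0.63, and 131 and 122 of them were above 0.

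Of the 193 genes, 133 fell in a list by role. Over the whole stretch 68.9% of genes in tumour 3 and 49.2% in tumour 4 exceeded every knockout liver. Of all 9528 genes it was 23.4% and 16.3%. Counts by list use the values that chose the stretch, and nothing about roles is read from them. Genes of protein quality control and trafficking, 27 in number, had median ratios of 1.04 in tumour 3 and 0.78 in tumour 4, and 26 and 25 of them exceeded every knockout liver. Reep5 shapes tubules of the endoplasmic reticulum. Its signals were 154, 104 and 79.1 in the controls and 207, 215 and 293 in the knockout livers. It reached 1217 in tumour 3 and 1341 in tumour 4, 5.07-fold and 6.00-fold above the knockout livers, against 248 to 342 in the other tumours. Hspa9, the chaperone that draws proteins into mitochondria, gave 1186, 1126 and 1072 in the controls and 1161, 1246 and 1528 in the knockout livers. It was 3272 in tumour 3, 2267 in tumour 4 and 1057 to 1145 in the other tumours. Both genes separated tumours 3 and 4 from all 13 other samples.

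Further genes of this list were above the knockout livers in both. Yipf5, a Golgi membrane protein gene, was 1031 and 920, against 215, 325 and 472 in the knockout livers and 353, 541 and 458 in the controls; the other tumours lay at 463 to 613. Cul2, the scaffold of the ubiquitin ligase that holds the VHL protein, was 900 in tumour 3 and 419 in tumour 4, against 162, 229 and 247. Atg12, which is needed to form autophagosomes, was 308 and 300 against 81.9, 90.1 and 130. Ap3s1, a subunit of the AP-3 adaptor that sorts cargo to lysosomes, was 1310 and 1603 against 396, 545 and 643. For these 4 genes tumours 3 and 4 also lay above every control and every other tumour. Tmed7, a cargo receptor gene of early secretory vesicles, had ratios of 1.53 and 1.28, Txnl1, a thioredoxin-like protein gene, of 0.90 and 0.80, and Ndfip1, an adaptor for NEDD4 ubiquitin ligases, of 0.39 and 0.74.

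Cystm1 went the other way. This small membrane protein gene was 12.9 in tumour 3, below the 40th percentile of that array, and 306 in tumour 4. Its signals were 385, 424 and 612 in the knockout livers, 225, 138 and 154 in the controls, and 165 to 581 in the other tumours.

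**Figure D5:**
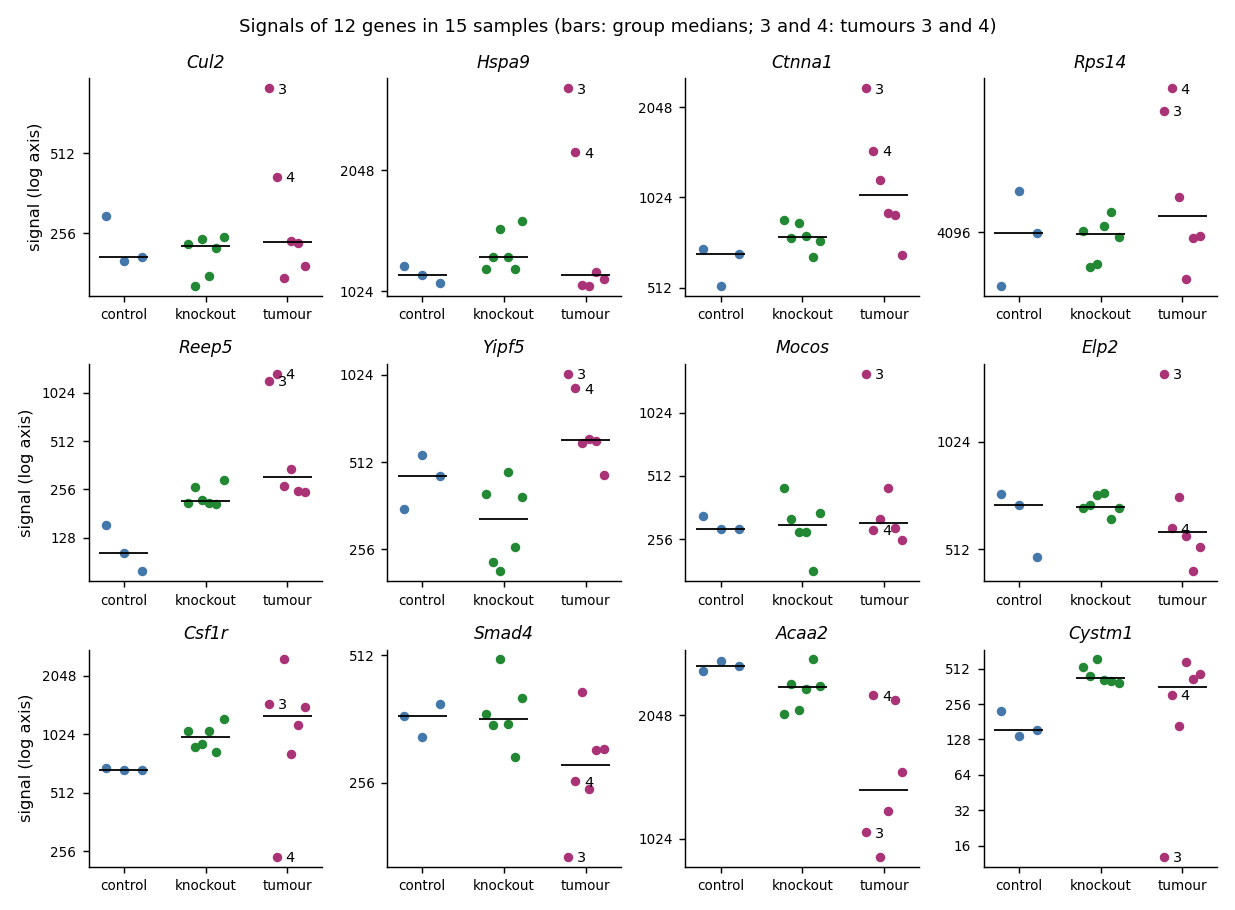
Deposited signals (vertical axes, log scale) of 12 genes of the stretch in the 15 samples by group; points are samples, bars group medians, and tumours 3 and 4 are numbered. In the top row and for Reep5 and Yipf5 both tumours lie above all other samples, for Mocos and Elp2 tumour 3 alone does, and for Smad4 and Cystm1 tumour 3 is the lowest sample.

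All 12 genes of translation were above every knockout liver in tumour 3 and 11 in tumour 4, with medians of 0.99 and 0.78. The shares over the stretch were 68.9% and 49.2%, and over all genes 23.4% and 16.3%. Rps14, a protein of the small ribosomal subunit, had signals of 3382, 4755 and 4084 in the controls and of 3614, 4073 and 4406 in the knockout livers. It was 6339 in tumour 3, 6865 in tumour 4 and 3470 to 4656 in the other tumours. Nars, the asparaginyl-tRNA synthetase gene, was 1196 and 1273, against 708, 831 and 1092 in the knockout livers, so that the excess over the highest liver was small. Riok3, a kinase gene tied to ribosome maturation, had ratios of 1.25 and 0.40, and 2 other probe sets of it gave 1.28 and 1.12, and 1.34 and 0.95. The gene that tumour 4 did not share was Tcof1, which acts in ribosomal RNA synthesis and was named after its values were seen. Its ratios were 0.79 in tumour 3 and -0.93 in tumour 4. By its 2 other probe sets they were -0.29 and 0.50 in tumour 3, and 0.11 and 0.24 in tumour 4, all dim.

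The 27 genes of RNA processing and transcription had medians of 0.48 in both tumours. Of them 18 and 15 exceeded every knockout liver, against 68.9% and 49.2% of the stretch. Rnf14, a ubiquitin ligase gene first known as an androgen receptor coactivator, was 606 in tumour 3 and 548 in tumour 4, against 200, 280 and 339 in the knockout livers and 271, 279 and 324 in the controls. Ss18, a subunit of the BAF chromatin remodelling complex, was 496 and 504 against 249, 272 and 314. Both tumours exceeded all other samples for these genes. Matr3, a nuclear matrix protein gene, was at -0.34 in tumour 3 and 0.38 in tumour 4; the tumour 3 value was 0.02 against its own liver and 0.16 with the mean of all its probe sets.

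Among 14 signalling genes the medians were 0.65 and 0.63. In each of the tumours 8 exceeded every knockout liver, against 68.9% and 49.2% of the stretch. Ctnna1, alpha-catenin, which ties cadherin and beta-catenin to actin, was 2367 in tumour 3 and 1466 in tumour 4. The knockout livers lay at 650, 757 and 861, the controls at 689, 520 and 665, and the other tumours at 658 to 1171. Csnk1a1, the kinase that first phosphorylates beta-catenin for its breakdown, was 1116 in tumour 3 and 661 in tumour 4, against 315, 386 and 532 in the knockout livers and 275, 242 and 306 in the controls. Tumour 5-1, at 659, was as high as tumour 4 for this gene, and a dim probe set of it gave -0.83 and -1.02 in tumours 3 and 4. Sra1, a nuclear receptor coactivator gene, had ratios of 1.24 and 0.88. Bambi was 14.9 and 10 in tumours 3 and 4, below the 40th percentile of both arrays, against 38.8, 51.4 and 96.1 in the knockout livers. Its ratios thus rest on values close to background. The controls, at 37.7, 21.7 and 33.1, and tumours 5-2, 6-1 and 6-2, at 25.7, 18.8 and 24.1, were also below every knockout liver. Tumour 5-1 was at 60.8. The summed stellate cell markers, below every knockout liver in tumours 3, 4, 6-1 and 6-2, are given at the start. Their part in the Bambi values was not tested.

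Metabolic genes, 13 in number, had medians of 0.78 and 0.43. In tumour 5-1 none of them was above 0 and the median was -0.86. Aldh7a1, a dehydrogenase of lysine breakdown, was 4173 in tumour 3 and 3468 in tumour 4, against 1810, 2451 and 2716 in the knockout livers and 1028 to 2097 in the other tumours. Hsd17b4, the multifunctional enzyme of peroxisomal beta-oxidation, was 3741 and 2534 against 1678, 1842 and 2209, with 771 to 1842 in the other tumours. For both genes, by these signals, tumours 3 and 4 were above every knockout liver and the other tumours at or below the median liver. By another probe set, Hsd17b4 was at 0.42 in tumour 6-2, and Aldh7a1, dim there, at 0.38 in tumour 6-1 and -0.49 in tumour 4. Fech, the last enzyme of haem synthesis, showed the same arrangement by its brightest probe set, at 2023 and 1765 against 1019, 1154 and 1315. The other tumours were at 521 to 1001. Its other probe sets put tumours 3 and 4 at 1.22 and 1.38, and at 1.00 and 0.74. They also put tumour 5-1 above 0, at 0.66 and 0.22, and tumour 6-1, at 0.32 and 0.20, with tumours 5-2 and 6-2 below 0. Ppargc1b, a coactivator of mitochondrial genes, was above the knockout livers in tumour 3 alone among the tumours, at 312 against 136, 162 and 183. It was 93.4 in tumour 4. The controls, whose signals are given further on, were also above every knockout liver.

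The 9 genes of secreted and transport proteins had medians of 0.61 and 0.13. Ttr, the plasma carrier of thyroxine and retinol-binding protein, was 15657 in tumour 3 and 16188 in tumour 4, inside the knockout liver range of 10436 to 17785. Cdo1, cysteine dioxygenase, was 5370 and 6140, against 2730, 3388 and 5267 in the knockout livers and 3832, 4464 and 5407 in the controls. Proc, which encodes the anticoagulant protein C, was 4600 in tumour 3, above the highest knockout liver at 3943, and 3180 in tumour 4, inside their range. The highest ratio of all 193 genes in tumour 3 was that of a water channel gene in no list, Aqp4, at 4.65. Its signal was 394 there, 35.3 in tumour 4, 1.3 to 28.4 in the knockout livers and 6 to 44.2 in the controls. Tumour 6-2, at 60.1 and a ratio of 2.11, was above tumour 4, whose ratio was 1.57. Tumours 5-1, 5-2 and 6-1 were at 25.8, 27.7 and 9.8. By a second Aqp4 probe set the ratios were 3.86 in tumour 3, 1.45 in tumour 4 and 2.23 in tumour 6-2. Of the knockout livers, 1 had Aqp4 above the 40th percentile of its array, so its ratio rests on values close to background.

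Cell cycle and DNA repair genes, 9 in number, had medians of 1.00 and 0.25. Ercc3, a helicase of transcription and nucleotide excision repair, was 240 and 263 in tumours 3 and 4, against 74.5, 122 and 158 in the knockout livers and 73.4 to 84.8 in the controls. Esco1, which acetylates cohesin, was 269 and 168 against 63.6, 104 and 141, but tumour 5-2 reached 172. Seh1l, a nuclear pore protein gene, was 346 in tumour 3 and 251 in tumour 4 against 206, 225 and 258, and the controls were as high, at 332, 283 and 338. Its 2 next brightest probe sets had both tumours above the controls, with ratios of 0.82 and 0.81 in tumour 3 and of 1.05 or more in tumour 4. Cell division markers outside the stretch, 7 genes such as Mki67, summed to 401 in tumour 3 and 879 in tumour 4, against 234 to 533 in the knockout livers.

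Adhesion, cytoskeleton and matrix genes were the only list of the 9 with a median below 0 in tumour 3. Over 15 genes it was -0.23, with 0.20 in tumour 4. Lims2, a partner of integrin-linked kinase, was high, at 1460 and 876 against 282, 542 and 629 in the knockout livers and 460 to 556 in the controls. Tubb6, a beta-tubulin gene, was 242 and 380 against 52.2, 104 and 146. Dpysl3, a microtubule-associated protein gene best known from neurons, was 9.3 in tumour 3, below the 40th percentile of that array, and 38.3 in tumour 4, against 38.8, 66 and 95.8. Nrep was 209 in tumour 3, below the knockout liver range of 269 to 581, and 323 in tumour 4, inside it. Tumours 5-2 and 6-2, at 154 and 263, and control liver 2, at 246, were also below that range. Arap3 was close to background, at 3.5 and 11.6 against 11 to 28.7, and above the 40th percentile in 3 of the 15 arrays. Dsg2, the desmosomal cadherin desmoglein-2, lay at -0.23 and -0.68. The tumour 3 value of Dsg2 turned to 0.13 against the controls and to 0.23 against its own liver, and its other probe sets ranged from -0.56 to 0.62 in tumour 3 and from -0.58 to 0.57 in tumour 4. The stellate cell, bile duct and endothelial marker sums were below every knockout liver in both tumours. Other tumours were low too. Endothelial sums of tumours 5-1 and 6-1, at 515 and 537, were also below every knockout liver. So were stellate cell sums of tumours 6-1 and 6-2, at 1340 and 945. The part of these sums in the values of the list was not tested.

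The 7 immune genes had medians of 0.66 in tumour 3, -0.29 in tumour 4 and 0.87 in tumour 5-1. Iigp1, an interferon-inducible GTPase gene, was 5036 and 4605 against 1773, 2003 and 2432 in the knockout livers, 1726, 2156 and 2404 in the controls and 1363 to 2753 in the other tumours. Csf1r, the receptor for colony-stimulating factor 1 on macrophages, was 1465 in tumour 3 and 239 in tumour 4, against 830, 984 and 1224. In tumour 4 it was 3.74 times lower than in the knockout livers. Cd14, the lipopolysaccharide co-receptor gene of macrophages, was 149 and 75.9 against 71.1, 110 and 173. The summed macrophage markers were 3182 in tumour 3, inside the knockout liver range of 2835 to 4732, and 1124 in tumour 4, below it, and their part in the values was not tested.

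Few genes of the stretch differed between knockout livers and controls. Tests were run with limma over all 9528 genes, and a gene was called at a Benjamini-Hochberg adjusted p under 0.05. In this comparison 1 of 193 genes was called (0.518%), against 1.7% of all genes. The spread in that fit is also estimated from tumours 3 and 4, whose high values chose the stretch. The low count is therefore not read as a trait of the stretch. Without tumours 3 and 4 the count was 5 (2.59%), against 358 of all genes (3.76%). In a fit of the knockout livers and controls only, it was 18 (9.33%), against 1000 of all genes (10.5%). The median log2 change of the 193 genes was -0.002, against -0.02 over all genes, and 19 of them (9.84%) had an unadjusted p under 0.05, against 15.7%. The gene was Fgf1, a fibroblast growth factor gene that PPAR-gamma controls in fat. Its signals were 233, 175 and 292 in the controls and 74.2, 94.3 and 154 in the knockout livers. The groups did not overlap, which adds nothing for a gene picked by its call, and the share over all genes was not counted. Fgf1 fell by 1.12 on the log2 scale (SE 0.26, 6 knockout livers and 3 controls, limma adjusted p = 0.0377). Leaving out any single control ended the call, as did leaving out knockout liver 1, 2, 3, 4 or 6, or the filter. Over 25 alternatives the limma adjusted p ranged from 0.00286 to 0.212. Hepatocyte markers summed to 85259 to 90820.5 in the controls and 64983 to 83101 in the knockout livers, and macrophage markers to 1880 to 2012 and 2835 to 4732. The ratio of 3' to 5' actin probe sets, a sign of RNA integrity, was 2.55 to 3.37 and 1.74 to 2.74. Their part in the Fgf1 values was not tested.

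Tumours of animals 5 and 6, 4 tumours of 2 mice, were compared with the other groups in a fit without tumours 3 and 4. Against controls 20 of the 193 genes were called (10.4%), 9 higher and 11 lower, against 10.1% of all genes. The share of the stretch was thus near the background, and the median change was 0.02, against 0.01 over all genes. Against the knockout livers 0 of 193 and 0% of all genes were called by limma, with 31 of the 193 (16.1%) and 1241 of all genes at an unadjusted p under 0.05. The spread within that fit takes tumours of the same mouse as correlated at -0.05, so they count nearly as separate animals.

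Of the genes higher than in controls, Tubb6 rose by 2.31 (SE 0.45, limma adjusted p = 0.00465), from 74.7, 9.3 and 8.1 to 97.4 to 194. As 2 of its 3 control signals were below the 40th percentile of their arrays, the size of that change depends on the added 9.1. Cd14 rose by 2.05 (SE 0.35, limma adjusted p = 0.00191), from 53.1, 53.2 and 21.2 to 118 to 340. Reep5 rose by 1.28 (SE 0.21, limma adjusted p = 0.00139), from 79.1 to 154 in the controls to 248 to 342. The groups did not overlap for these 3 genes, which adds nothing for genes picked by their call. The share over all genes was not counted. Kif20a, a mitotic kinesin gene, Slc26a2, a sulphate transporter gene, and Ppic, a cyclophilin gene, were called too, at 1.56, 1.30 and 1.13. Of the 3 controls, 0, 1 and 1 had these genes above the percentile, so their changes rest on control values close to background. They lost the call in 19, 10 and 13 of 22 alternatives, of which 12, 6 and 8 left out 1 array, control 1 among them for each. The summed macrophage markers were 1880 to 2012 in the controls and 3833 to 6618 in these tumours, and the cell division markers 90.3 to 141 and 371 to 1167. Their part in the values of Cd14 and Kif20a was not tested.

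Of the genes lower than in controls, Fgf1 fell by 1.57 (SE 0.27, limma adjusted p = 0.00194), to 53.8 to 117. Ttc39c, a tetratricopeptide repeat gene, fell by 1.32 (SE 0.24, limma adjusted p = 0.0028), from 2105 to 2226 in the controls to 561 to 1479. Ppargc1b fell by 1.17 (SE 0.17, limma adjusted p = 0.000757), from 216 to 261 to 82.4 to 123, and Kcnn2, a calcium-activated potassium channel gene, by 0.99 (SE 0.17, limma adjusted p = 0.00214), from 160 to 185 to 67.8 to 98.4. None of the 4 overlapped between the groups, which adds nothing for genes picked by their call; the share over all genes was not counted. Acaa2 fell by 0.95 and Fech by 0.81 (limma adjusted p = 0.0132 and 0.0145), and they lost the call in 3 and 4 of 22 alternatives. Acaa2 lost it without control 2 or 3, and Fech without control 1 or 2 or with the mean of its probe sets. Both lost it in a fit of only the groups compared. Over the 22 alternatives the limma adjusted p ranged from 0.000464 to 0.0931 for Acaa2 and from 0.00398 to 0.101 for Fech. Summed hepatocyte markers were 85259 to 90820.5 in the controls and 50351 to 62455 in these tumours. The ratio of 3' to 5' actin probe sets was 2.55 to 3.37 in the controls and 1.51 to 1.95 in these tumours, and the part of neither in the calls was tested.

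With tumours 3 and 4 included, the comparisons use the values that chose the stretch and are given as counts. All 6 tumours against the knockout livers gave 0 of 193 genes called by limma, with 0.136% of all genes, and 32 of the 193 had an unadjusted p under 0.05 (16.6%, against 10.3%). The median change was 0.19, and 142 genes (73.6%) were above 0, against 51.3% of all genes. All 6 tumours against controls gave 11 genes called (5.70%), 7 higher and 4 lower, against 6.97% of all genes.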

How the data were processed

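Signals of 15 arrays were used. Per the submitters' processing notes the authors made the deposited intensity values with MAS5, whose version and settings are not given in the sources used here; the values are on a linear scale. Of 22690 probe sets 64 controls were left out. Genes were named from the platform annotation (20393 probe sets with 1 gene, 691 with several, 1606 not listed) and placed by the RefSeq table of GRCm38.p6. The 16120 probe sets above the 40th percentile in 3 or more arrays held 14796 with 1 gene, and each gene was taken from its brightest probe set. The 20th percentile over the whole table, 9.1, was added to each signal before log2 was taken, and the result was fitted with limma 3.58.1 (R 4.3.3, statmod 1.5.0), lmFit and eBayes with trend, with the animal as a random block (correlation -0.02 over 15 arrays, -0.05 over 13). Fits that left out an array reused that correlation. The scripts were tested on simulated data. The animals pair livers and tumours by the labels; after group means were taken out, pairs of 1 animal correlated at -0.15 to 0.09, and samples of different animals at -0.10 to 0.17. Controls and knockout livers are 1 array per animal; tumours of 1 mouse are not separate animals. The number of arrays limits the precision.

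The members, role lists and marker lists were chosen with earlier results of these data known. Genes were named by rule: the 3 brightest of each role list, the 8 highest and 5 lowest by the mean ratio of tumours 3 and 4, up to 6 called genes per direction in each comparison that was tested, and the 3 genes on each side of each edge. Alternatives were other pseudocounts, filters, normalizations, probe set rules, references, blocks and sets of samples. No sequence is printed here.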

Additional observations from a re-analysis of the deposited data

Results flagged for a closer look

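Among 112 groups of 6 samples, those of the named genes and of the median of the stretch, 6 (5.36%) were flagged. In these a sample's gap to its nearest neighbour, divided by the range of the group, was above Dixon's critical value of 0.625. For groups of independent samples chance flags about 1 in 20. Tumours 3 and 4 chose the stretch, genes were named by tumour values, and the 6 tumours came from 4 mice. No chance rate therefore holds for the tumour groups, whose flags are description only. In tumour 3, Ppargc1b was the highest tumour by a ratio of 0.707, at 312 against 82.4 to 123, and Cystm1 the lowest by 0.63, at 12.9 against 165 to 581. The other 4 were knockout livers. Lims2 was low in knockout liver 6 (0.774, 282 against 525 to 629). Ttc39c was high in knockout liver 5 (0.662, 2096 against 1543 to 1711). Zbtb7c was low in knockout liver 3 (0.652, 4.2 against 21.5 to 38.6), and Kif20a was high in knockout liver 2 (0.633, 50.1 against 19.2 to 28).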

How the results depend on the processing

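The median ratio of the stretch stayed between 0.53 and 0.85 in tumour 3 and between 0.34 and 0.58 in tumour 4 over all alternatives, including the 188 genes that pass the filter without these tumours, an alternative chosen after seeing the data (0.79 and 0.50). With the controls as reference the median of knockout liver 1 moved to 0.0715 and that of knockout liver 6 to 0.00758. Of 1746 alternative ratios of named genes in tumours 3 and 4, 1719 kept their sign; the 27 others fell in 15 of 110 results, among them Cd14 and Cystm1 in tumour 4, at 0.93 and 0.96 against the controls.

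Counts of called genes depended on the fit; the count over all 9528 genes under the same setting follows each in parentheses (6590 genes with the stricter filter, 12393 with no filter). Knockout livers against controls gave 2 genes with a pseudocount of 1 (188), 2 with the stricter filter (168), 2 with median centring (192), 0 with no filter (132), 5 without tumours 3 and 4 (358), 18 in a fit of only those groups (1000), and 0 to 3 with an array left out (36 to 292). Tumours against controls gave 3 in a fit of only those groups (177), 20 without tumours 3 and 4 (964), and 3 to 16 with an array left out (222 to 770). For tumours of animals 5 and 6 against controls it was 7 in a fit of only those groups (310) and 8 to 26 with an array left out (494 to 1242). Against knockout livers these tumours gave 1 gene with the stricter filter (9), 1 with quantile normalization (1), 2 with median centring (39) and 0 to 6 with an array left out (0 to 240), the 6 without tumour 6-1 (240). All tumours against knockout livers gave 0 to 3 (0 to 68), the 3 without tumour 6-1 (68). The causes of these shifts were not tested. In the paired fit, with the animal as a fixed replicate block, tumours against knockout livers gave 0 genes of the stretch and 0 of all genes, with 35 and 728 at an unadjusted p under 0.05; without any replicate block limma gave 1, 0, 11, 19 and 0 genes in the 5 comparisons. Dim genes limit the ratios: the dimmest 64 had a median of 0.004 in tumour 4.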
